A study of Mus musculus with 16 samples.

Results

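Cxcl1, Cxcl5, Cxcr1, Cxcr2 and S100a8 are the 5 genes of neutrophil recruitment described here, chosen by name out of the 770 genes of a mouse immune panel, and all 5 were measured and tested. The RNA came from 16 mouse tumours and was measured with the NanoString nCounter PanCancer Immune panel, in which a colour-coded probe counts the transcripts of each gene without amplification. The tumours grew from MC38, a mouse colorectal cancer line, or E0771, a mouse breast cancer line, after 500000 cells had been implanted with matrigel in the right shoulder. Each tumour carries a label of hypoxic or normoxic, and the study's design names PET imaging with the hypoxia tracer fluoromisonidazole, given before and during checkpoint blockade.

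The groups were 4 normoxic and 4 hypoxic MC38 tumours, and 5 normoxic and 3 hypoxic E0771 tumours. Every mouse in all 4 groups had received immunotherapy against PD-1 and CTLA-4, both of them brakes on T cells, and every tumour was removed after the imaging of day 5 of treatment. No untreated tumour was part of the comparison, so each difference is one between treated tumours. Each model is 1 cell line, and the strain, sex and age of the mice and the uptake that divided hypoxic from normoxic were not stated in the labels. A tumour is named below by its group and mouse number, and nothing in the labels pairs tumours of different groups. The whole tumour was measured, so fewer cells of a type and less RNA per cell cannot be told apart.

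Neutrophils are drawn out of blood by small secreted proteins, the ELR-positive CXC chemokines, which bind the receptor CXCR2 on the neutrophil surface. CXCL1 is made by macrophages, endothelial cells, fibroblasts and many tumour cells after inflammatory signals that act through NF-kB, and CXCL5 is made mainly by epithelial and stromal cells and by platelets. CXCR2 is the main receptor of both in mice, and CXCR1 is its close relative, with fewer known mouse ligands. S100A8 is a calcium-binding protein that pairs with S100A9 to form calprotectin, and neutrophils and monocytes hold it in large amounts. Hypoxia in tumours has been linked to myeloid cells that restrain T cells, and these chemokines and receptors are among the routes by which such cells enter.

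The ligands share a chromosome neighbourhood. In the RefSeq annotation of assembly GRCm38.p6 the protein-coding genes Cxcl5, Ppbp, Pf4, Cxcl3, Cxcl15, Cxcl1 and Cxcl2 follow one another on chromosome 5, Cxcr2 and Cxcr1 lie side by side on chromosome 1, and S100a8 lies on chromosome 3. RefSeq promoters of the same build, reaching from 250 bases before to 50 bases after the gene start, were matched for 4 of the 5 genes (Cxcl1, Cxcr1, Cxcr2 and S100a8). The stretch from -130 to -11 before the start is printed for Cxcl1, for the 4 neighbouring ligand genes with a promoter and a panel value, and for S100a8. It shows how the letters of these promoters compare, and no link between promoter letters and signal in the tumours was tested. The stretches lie at chr5:90891115-90891234 for Cxcl1, chr5:90903769-90903888 for Cxcl2, chr5:90785971-90786090 for Cxcl3, chr5:90768388-90768507 for Ppbp, chr5:90794404-90794523 for Cxcl15 and chr3:90668941-90669060 for S100a8, all on the plus strand. Capitals mark matches to the NF-kB motif and to the TATA box TATAAA.
Cxcl1: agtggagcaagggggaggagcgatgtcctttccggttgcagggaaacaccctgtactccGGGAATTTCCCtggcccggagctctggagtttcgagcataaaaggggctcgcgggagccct
Cxcl2: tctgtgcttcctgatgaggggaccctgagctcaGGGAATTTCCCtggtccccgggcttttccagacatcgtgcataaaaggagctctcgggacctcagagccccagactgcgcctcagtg
Cxcl3: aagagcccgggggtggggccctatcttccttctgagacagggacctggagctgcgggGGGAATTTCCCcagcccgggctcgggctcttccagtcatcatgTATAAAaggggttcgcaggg
Ppbp: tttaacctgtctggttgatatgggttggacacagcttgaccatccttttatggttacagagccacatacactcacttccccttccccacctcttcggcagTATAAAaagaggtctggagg
Cxcl15: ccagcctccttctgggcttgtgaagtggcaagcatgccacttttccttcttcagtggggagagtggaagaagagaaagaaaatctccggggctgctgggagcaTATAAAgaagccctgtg
S100a8: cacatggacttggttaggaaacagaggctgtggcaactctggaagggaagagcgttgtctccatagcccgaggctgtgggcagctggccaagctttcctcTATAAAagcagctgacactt

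The promoters of Cxcl1, Cxcl2 and Cxcl3 carried the same run of capitals, which holds a pair of overlapping NF-kB matches, at -71 to -61 in Cxcl1, -97 to -87 in Cxcl2 and -73 to -63 in Cxcl3. No NF-kB match was found in the promoters of Ppbp, Cxcl15, Cxcr1, Cxcr2 or S100a8, where both strands were searched. Of all 32851 promoters in the table, 8.46% held an NF-kB match. The TATA box, held by 13.6% of all promoters, was found in Cxcl3, Ppbp, Cxcl15 and S100a8. The core letters of the hypoxia response element (ACGTG or GCGTG on either strand, held by 43.8% of all promoters) were found in Cxcl1 at -196 to -192, and also in Cxcl2, Cxcl3 and Ppbp outside the printed stretch. A C/EBP motif (TTGCNNAA, either strand, held by 10.8% of all promoters) was found in none of the 8 promoters searched. A match describes letters only and is not a measured binding site.

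The deposited values are signals already normalized to housekeeping genes, whose geometric mean was 780 in every tumour, so that each signal is relative to those genes. The number of gene counts behind a tumour, estimated from the steps between its values, ran from 180274 to 890239, and 5 tumours lay under 350000: MC38 hypoxic 14 and 25, E0771 hypoxic 12 and 22, and E0771 normoxic 65. A tumour with few counts was scaled up more, and its background with it. The background level used here, the mean of the negative-control probes plus 2 SD, ran from 6.25 in MC38 hypoxic 17 to 52.8 in E0771 hypoxic 22. Cxcl1 and Cxcl5 were each above that level in 15 of 16 tumours, S100a8 in 16, Cxcr2 in 11 and Cxcr1 in 7. Signals of different genes are not compared as levels, because each probe has its own yield. The epithelial markers Epcam and Cdh1 were above background in 11 and 13 of the 16 tumours, and the leukocyte gene Ptprc in all 16.

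**Figure D1:**
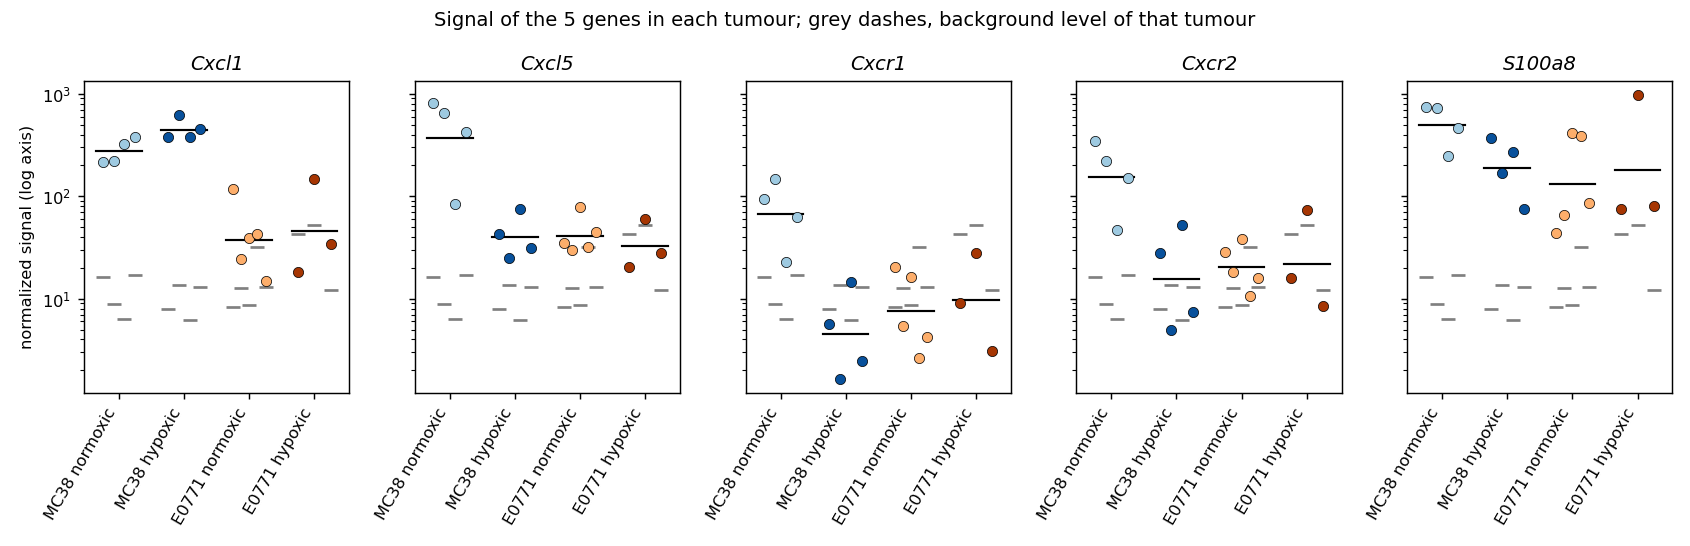
Normalized signal of Cxcl1, Cxcl5, Cxcr1, Cxcr2 and S100a8 (log axis) in each of the 16 tumours, by group. Each point is a tumour, black lines are group means taken on the log2(signal + 1) scale, and grey dashes are the background level of that tumour. In MC38 the points of Cxcl5, Cxcr1 and Cxcr2 fall from the normoxic to the hypoxic group while those of Cxcl1 do not, and in E0771 the groups of all 5 genes overlap.

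In MC38, hypoxic tumours held less RNA of the chemokine Cxcl5 and of both receptors than normoxic tumours, while the chemokine Cxcl1 did not pass the test in either direction. Cxcl5 was 9.20-fold lower on the log2(signal + 1) scale in the limma fit over all panel genes, with every MC38 tumour above background. The receptors were lower by fitted log2 differences of similar size, -3.61 for Cxcr1 and -3.21 for Cxcr2, but their hypoxic levels are poorly measured. Cxcr1 was above background in 1 and Cxcr2 in 2 of the 4 hypoxic tumours, so no fold is given for them. The 3 calls among the 5 genes, all lower, stand beside a broad shift of the panel. Of the 712 genes tested, 48.0% passed as lower and 0.562% as higher at an adjusted p of 0.05, and the median gene had a log2 difference of -1.27. A count of 3 in 5 is close to that share, and their differences ranked 9 (Cxcr1), 21 (Cxcr2) and 23 (Cxcl5) from the lowest. Cxcr1 was admitted to testing only through the normoxic MC38 group, so its call and rank are not independent of the filter. After each tumour was centred on its median gene the panel split into 93 higher and 108 lower calls in place of 4 and 342, the same 3 genes passed as lower (log2 differences of -1.97 for Cxcl5, -2.38 for Cxcr1 and -1.98 for Cxcr2), and Cxcl1 passed as higher.

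Cxcl1, the ligand of CXCR2 that many cell types release under inflammatory stimulation, was well above background in every MC38 tumour. Its signal in the normoxic tumours was 218 in mouse 4, 218 in mouse 7, 322 in mouse 10 and 379 in mouse 21, a mean of 284 ± 80.1 (SD, n = 4). The hypoxic tumours held 376 in mouse 17, 379.95 in mouse 12, 449.6 in mouse 25 and 623 in mouse 14, a mean of 457 ± 116 (SD, n = 4). Each of the 4 hypoxic tumours exceeded the mean of the normoxic ones, but the normoxic tumour of mouse 21 reached into their range, so the groups overlap. This gave a log2 difference of 0.69 ± 0.61 (SE), an adjusted p of 0.331 in limma, a 95% interval from -0.58 to 1.97 and an exact two-sided permutation p of 0.0571, where 0.0286 is the smallest possible. The rank of Cxcl1 was 21 from the top among the 712 differences. Measured against each tumour's median gene, the Cxcl1 difference was 1.92 with an adjusted p of 0.0281, so whether it passed depended on the scaling.

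Cxcl5, the chemokine of epithelial and stromal cells, was lower in hypoxic MC38 tumours. Normoxic MC38 tumours held 820.3 in mouse 4, 653 in mouse 7, 424 in mouse 21 and 84.8 in mouse 10, a mean of 496 ± 319 (SD, n = 4). Hypoxic tumours held 74.9 in mouse 17, 42.5 in mouse 12, 31.05 in mouse 25 and 24.8 in mouse 14, a mean of 43.3 ± 22.3 (SD, n = 4). The groups do not overlap, although the normoxic tumour of mouse 10 lay just above the hypoxic range and far below its group. Complete separation with the hypoxic tumours below was found for 24.3% of the 712 genes. The log2 difference was -3.20 ± 0.62 (SE), adjusted p = 0.00732 in limma and exact two-sided permutation p = 0.0286, the smallest this design allows.

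The ratio of the ligands within a tumour is hardly moved by that tumour's scaling factor. The log2 ratio of the Cxcl5 signal to the Cxcl1 signal was 1.91, 1.58, 0.16 and -1.91 in the normoxic tumours of mice 4, 7, 21 and 10, with a mean of 0.43 ± 1.74 (SD, n = 4). In the hypoxic tumours it was -2.31, -3.13, -3.81 and -4.60 in mice 17, 12, 25 and 14, with a mean of -3.46 ± 0.97 (SD, n = 4). Every hypoxic value lay below every normoxic value. The exact two-sided permutation p was 0.0286, the smallest possible, and 0.228 after Benjamini-Hochberg adjustment over the 8 ratio tests made, so the difference did not pass that correction.

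Both receptors fell with Cxcl5. Cxcr2, the main neutrophil receptor for these ligands, was at 348, 219.8, 151 and 46.7 in the normoxic MC38 tumours of mice 4, 7, 21 and 10, a mean of 191 ± 126 (SD, n = 4). The hypoxic tumours held 51.9, 27.8, 7.45 and 4.96 in mice 17, 12, 25 and 14, a mean of 23.0 ± 21.8 (SD, n = 4), and only the first of the hypoxic tumours reached above a normoxic one. The signals of mice 25 and 14 were under the background of their tumours. The log2 difference was -3.21 ± 0.80 (SE) with an adjusted p of 0.00812 in limma, and because of that 1 crossing pair the exact two-sided permutation p was 0.0571.

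Cxcr1, the neighbour and relative of Cxcr2, was at 146 in mouse 7, 93.5 in mouse 4, 62.8 in mouse 21 and 23.0 in mouse 10 among normoxic MC38 tumours, all above background. Among hypoxic tumours it was at 14.5 in mouse 17, 5.72 in mouse 12, 2.48 in mouse 25 and 1.65 in mouse 14, and mouse 17 alone was above background. The groups do not overlap. Cxcr1 gave a log2 difference of -3.61 ± 0.81 (SE), the 9th lowest of the panel, with an adjusted p of 0.00732 in limma and an exact two-sided permutation p of 0.0286. The hypoxic signals correspond to as few as 1 estimated count, so the size of the Cxcr1 difference is the least precise of the 3. The gene was admitted to testing only through the normoxic MC38 group, the high side of this comparison. Its adjusted p and its rank are therefore not independent of the filter.

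S100a8, the calcium-binding protein of neutrophils and monocytes, did not pass between the MC38 groups. Normoxic tumours held 744 in mouse 4, 729 in mouse 7, 465 in mouse 21 and 245 in mouse 10, and hypoxic tumours 374 in mouse 12, 270.1 in mouse 17, 169 in mouse 14 and 74.5 in mouse 25.
The group means were 546 ± 238 and 222 ± 129 (SD, n = 4 each), and the groups overlap through normoxic mouse 10. The log2 difference was -1.39 ± 0.84 (SE), adjusted p = 0.168 in limma, with a 95% interval from -3.17 to 0.38, close to the panel's median shift of -1.27. Centred on the median gene it was -0.17.

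The depth of the tumours bears on these calls. Leaving out the 5 tumours under 350000 estimated counts keeps all 4 normoxic but only 2 hypoxic MC38 tumours, and no gene of the panel passed in MC38 then. The log2 differences were -2.70 for Cxcl5, -2.74 for Cxcr1 and -1.98 for Cxcr2 without them, each with an adjusted p of 0.17 in limma. Leaving out any single tumour kept the 3 calls, with log2 differences from -3.91 to -2.82 for Cxcl5, from -4.11 to -3.24 for Cxcr1 and from -3.77 to -2.71 for Cxcr2.

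**Figure D2:**
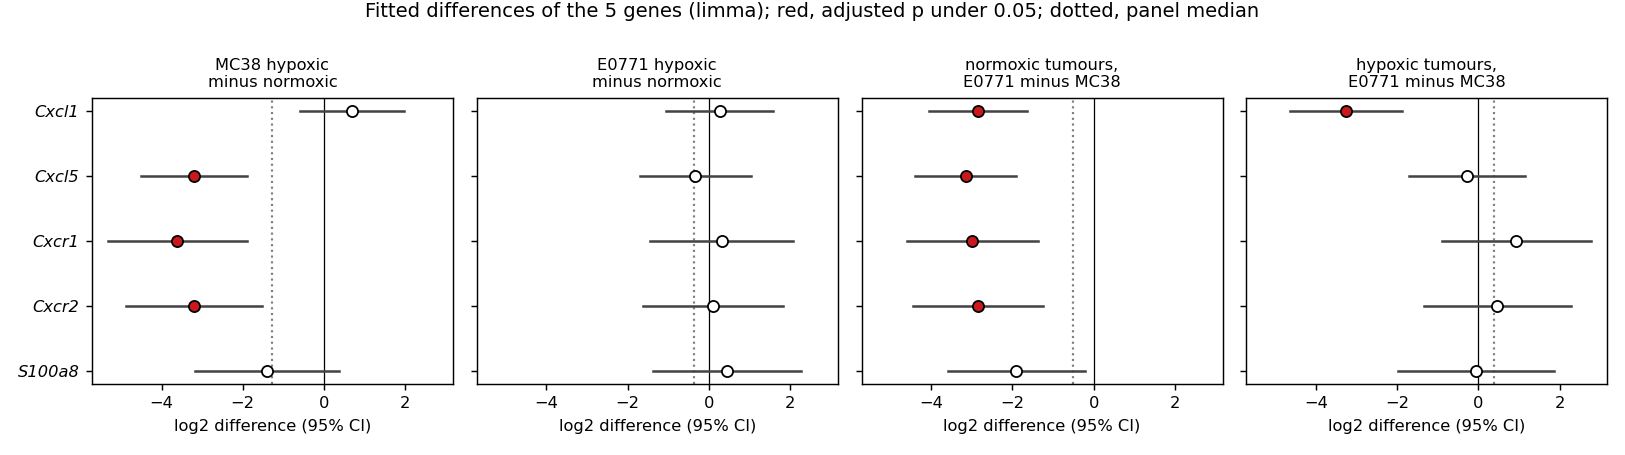
Log2 differences of the 5 genes in 4 comparisons of the limma fit, with 95% intervals. Filled red points had an adjusted p under 0.05 and dotted lines mark the median difference of the 712 genes tested. In MC38 the points of Cxcl5, Cxcr1 and Cxcr2 lie near -3 or lower, in E0771 all 5 intervals cross 0, and Cxcl1 is the gene that passed between the lines in both normoxic and hypoxic tumours. Cxcr1 was not above background in any hypoxic E0771 tumour, so its points in the comparisons with that group show fitted values without a measured level.

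In E0771 none of the 5 genes passed between hypoxic and normoxic tumours, and 0.0% of the panel did, with 45 of 712 genes at an unadjusted p under 0.05 in limma. Among the 8 E0771 tumours S100a8 was above background in 8, Cxcl1 and Cxcl5 in 7 each, Cxcr2 in 5 and Cxcr1 in 2. The hypoxic group held 3 tumours, and 2 of them had the fewest counts of all 16.

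Cxcl1 in E0771 was at 117, 42.5, 39.3, 24.5 and 14.9 in the normoxic tumours of mice 4, 65, 38, 17 and 71. The hypoxic tumours held 148 in mouse 22, 33.9 in mouse 55 and 18.2 in mouse 12, the last of these under its background. The ranges coincide, and in each group 1 tumour stood well above the rest. Their log2 difference was 0.27 ± 0.62 (SE) with a 95% interval from -1.04 to 1.59 and an adjusted p of 0.911 in limma.

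Cxcl5 was at 78.65, 44.7, 34.7, 31.9 and 30.0 in the normoxic E0771 tumours of mice 38, 71, 4, 65 and 17, and at 59.8, 27.8 and 20.5 in the hypoxic tumours of mice 22, 55 and 12. No E0771 tumour came near the 3 high normoxic MC38 tumours. Hypoxic and normoxic tumours differed by a log2 difference of -0.33 ± 0.65 (SE), with a 95% interval from -1.69 to 1.03 and an adjusted p of 0.89 in limma.

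Cxcr2 ran from 10.6 to 38.4 in normoxic E0771 tumours (28.4, 18.2, 38.4, 10.6 and 15.97 in mice 4, 17, 38, 65 and 71). Hypoxic tumours held 73.9 in mouse 22, 15.96 in mouse 12 and 8.48 in mouse 55, and of these mouse 22 alone was above background. Cxcr1 was at 20.2, 5.45, 16.5, 2.65 and 4.26 in the normoxic tumours of the same mice and at 28.2, 9.12 and 3.08 in hypoxic mice 22, 12 and 55, where none was above background. The log2 difference of Cxcr2 was 0.11 ± 0.82 (SE, 95% interval from -1.63 to 1.84, adjusted p 0.963 in limma). For Cxcr1 no fold is given, since the hypoxic group was not above background.

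S100a8 had the widest spread of the 5 genes among E0771 tumours, by the ratio of the highest to the lowest signal. Normoxic tumours held 417 in mouse 38, 390.3 in mouse 65, 85.2 in mouse 71, 66.3 in mouse 17 and 43.6 in mouse 4, and hypoxic tumours held 968 in mouse 22, 81.0 in mouse 55 and 75.3 in mouse 12. High and low tumours were found in both groups. The log2 difference was 0.45 ± 0.87 (SE), adjusted p 0.89 in limma, with a 95% interval from -1.38 to 2.28.

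The hypoxic tumour of mouse 22 was the highest E0771 tumour for Cxcl1, Cxcr2 and S100a8, and it also had the fewest estimated counts and the highest background of all 16. Without it the log2 differences in E0771 were -0.57 for Cxcl1, -0.75 for Cxcr2 and -0.75 for S100a8, all opposite in sign to those with it and none passing. The sign also turned for Cxcl1 without normoxic mouse 71 (-0.046) and for Cxcr2 without normoxic mouse 65 (-0.11). The direction of these genes in E0771 thus rests on single tumours.

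Whether the hypoxia difference itself differed between the lines was tested as the difference of the 2 differences, E0771 minus MC38. It was 3.31 ± 1.15 (SE) for Cxcr2 and 2.87 ± 0.90 for Cxcl5, each with an adjusted p of 0.205 in limma. No value is given for Cxcr1, whose hypoxic E0771 tumours were not above background. For S100a8 it was 1.84 ± 1.21 (adjusted p 0.39) and for Cxcl1 -0.42 ± 0.87 (adjusted p 0.816). None of the 5 passed, nor did any panel gene (0.0%, with 133 of 712 at an unadjusted p under 0.05), and the median gene stood at 0.76. Leaving out MC38 normoxic mouse 10, the normoxic tumour nearest to the hypoxic ones, let 132 of the 712 panel genes pass. Cxcl5 (3.58, adjusted p 0.0123) and Cxcr2 (3.88, adjusted p 0.0262) were among them in limma. Cxcr1 also passed then, but with no hypoxic E0771 tumour above background. It was also admitted to testing only through the normoxic MC38 group, so that call carries no weight of its own.

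Between the lines, normoxic E0771 tumours held less RNA of both chemokines and both receptors than normoxic MC38 tumours. The line comparison cannot be told apart from any batch that followed the line, since no run or cartridge is given. Of the 712 genes 14.3% passed as lower in E0771 and 1.4% as higher, with a median difference of -0.50, and 4 of the 5 genes passed as lower. After centring on the median gene the split was 28 higher and 87 lower calls in place of 10 and 102, and the same 4 genes passed. Cxcl5 differed by -3.15 ± 0.59 (SE, adjusted p 0.00388 in limma), the 6th lowest of the panel. Cxcl1 differed by -2.85 ± 0.57 (adjusted p 0.00544), Cxcr1 by -2.99 ± 0.77 (adjusted p 0.0195) and Cxcr2 by -2.85 ± 0.76 (adjusted p 0.0204), where Cxcr1 was above background in 2 and Cxcr2 in 4 of the 5 normoxic E0771 tumours. In each of these genes every normoxic E0771 tumour lay below every normoxic MC38 tumour, as 8.43% of the panel did, and the exact two-sided permutation p was 0.0159, the smallest possible.

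The calls of the receptors were the less secure of these. Cxcr1 and Cxcr2 each missed the threshold when MC38 normoxic mouse 4, 7 or 21 or E0771 normoxic mouse 17 was left out, with adjusted p-values up to 0.0797. Cxcr1 also missed it without the 5 tumours under 350000 estimated counts (-2.68, adjusted p 0.0595 in limma). It was admitted to testing only through the normoxic MC38 group, the high side of this comparison. S100a8 differed by -1.90 ± 0.80 (SE, adjusted p 0.117), and its groups overlap. It passed, at -2.29, when the 3 E0771 tumours of fewest counts were left out.

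Among hypoxic tumours Cxcl1 was the 1 gene of the 5 that passed between the lines. All 3 hypoxic E0771 tumours (148, 33.9 and 18.2) lay below all 4 hypoxic MC38 tumours (376 to 623), as 7.3% of the panel did, with a log2 difference of -3.27 ± 0.65 (SE), adjusted p = 0.00325 in limma, the 6th lowest of the panel. The exact two-sided permutation p was 0.0571, which is the smallest that 3 against 4 tumours can give. Without the 5 tumours under 350000 counts, which leaves 1 hypoxic E0771 tumour, the difference was -3.44 with an adjusted p of 0.238. The other 4 genes did not pass (Cxcl5 -0.28 ± 0.67, Cxcr2 0.46 ± 0.86 and S100a8 -0.06 ± 0.91), where 3.37% of the panel passed as lower and 4.49% as higher (24 and 32 genes, 36 and 23 after centring on the median gene, 46 and 0 when scaled on the positive-control probes). For Cxcr1 the hypoxic E0771 tumours give no level above background.

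By mean signal, the highest of the 4 groups was normoxic MC38 for Cxcl5, Cxcr1, Cxcr2 and S100a8, and hypoxic MC38 for Cxcl1. For Cxcl1 the means ran from hypoxic MC38 (457) and normoxic MC38 (284) down to hypoxic E0771 (66.7 ± 70.7, n = 3) and normoxic E0771 (47.6 ± 40.3, n = 5). The neighbours within a line did not pass the test, although the MC38 means lay further apart than either SD. The step from normoxic MC38 to hypoxic E0771 was not tested. For Cxcl5 normoxic MC38 stood alone at 496, with normoxic E0771 at 44.0 ± 20.2, hypoxic MC38 at 43.3 and hypoxic E0771 at 36.0 ± 20.9. Cxcr2 had the same single high group, at 191 against 32.8 ± 35.8 in hypoxic E0771, 23.0 in hypoxic MC38 and 22.3 ± 11.1 in normoxic E0771, where 7 of these 12 tumours were above background. Cxcr1 was at 81.3 ± 51.9 in normoxic MC38, and the other 3 groups, with 3 of their 12 tumours above background, have no order. S100a8 was at 546 in normoxic MC38, 222 in hypoxic MC38 and 200.5 ± 186 in normoxic E0771. Its mean of 375 ± 514 in hypoxic E0771 rests on mouse 22, with a group median of 81.0, so that group has no settled place. No tested pair of groups passed for S100a8.

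**Figure D3:**
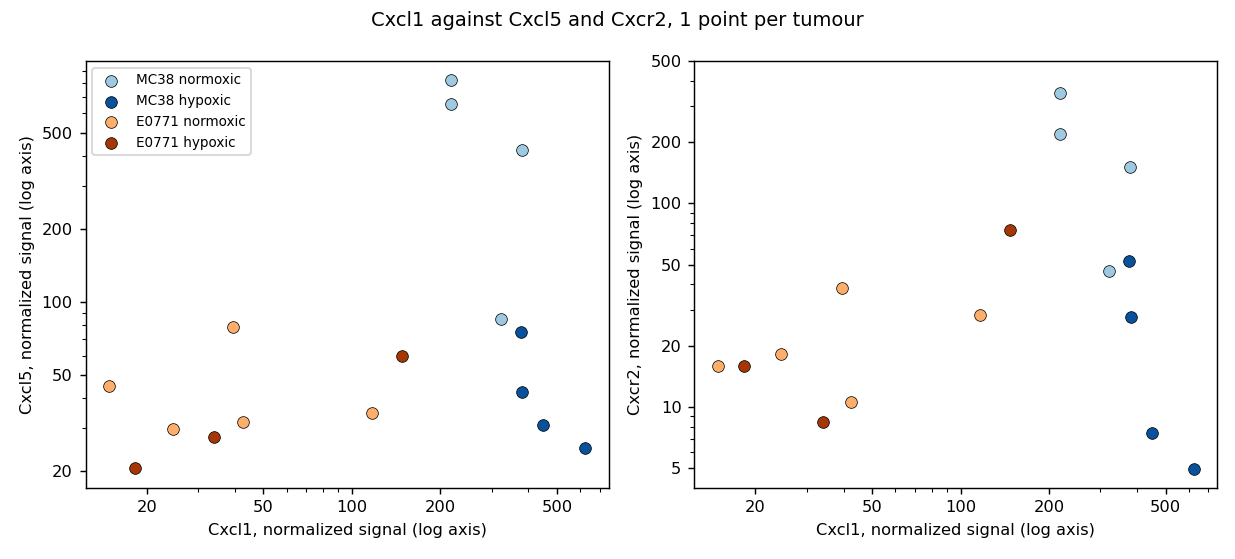
Normalized signal of Cxcl1 against Cxcl5 (left) and Cxcr2 (right), 1 point per tumour, log axes, coloured by group. In the 8 MC38 tumours Cxcl5 and Cxcr2 fall as Cxcl1 rises, and the 8 E0771 tumours do not show that slope.

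Across tumours the receptors and Cxcl5 moved together, and Cxcl1 moved apart from them. Over the 8 MC38 tumours, which share the hypoxia grouping, the Pearson correlation of log2(signal + 1) was 0.97 between Cxcr1 and Cxcr2, 0.97 between Cxcl5 and Cxcr1 and 0.96 between Cxcl5 and Cxcr2. Cxcl1 had correlations of -0.85 with Cxcl5, -0.88 with Cxcr1, -0.89 with Cxcr2 and -0.77 with S100a8 over the same tumours. Centring on each tumour's median gene left the first of these at -0.93 and the last at -0.48. Over the 8 E0771 tumours the Pearson correlations of Cxcl1 were positive, 0.38 with Cxcl5 and 0.65 with Cxcr2 (Spearman 0.43 and 0.48), where low signals lie near each tumour's background. With Cxcr1 no correlation is given, since it was above background in 2 of 5 normoxic and 0 of 3 hypoxic E0771 tumours. The correlations describe these tumours and were not tested.

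Cxcr1 and Cxcr2 had a correlation of 0.965 over all 16 tumours, where Cxcr1 was above background in 7 and Cxcr2 in 11. In E0771, with 2 and 5 of 8 tumours above background, no correlation is given. S100a8 followed Cxcr2 in MC38 at 0.90, and less closely, at 0.505, after centring on the median gene.

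The panel genes most like each of the 5 over all 16 tumours were named by Pearson correlation of log2(signal + 1), where the median panel gene had -0.006 with Cxcl1 and 0.579 with Cxcl5. Nearest to Cxcl1 were Klra4, a receptor of the Ly49 family of natural killer cells, at 0.965, Il1rl1, the receptor of IL-33, at 0.924 and Ido1, a tryptophan-degrading enzyme, at 0.882. All 3 were higher in MC38 than in E0771 in both states, and Il1rl1 by the most (log2 difference of -4.02 ± 0.61 in normoxic and -5.34 ± 0.69 in hypoxic tumours, E0771 minus MC38, SE). Nearest to Cxcl5 were Pla2g1b at 0.941, Il4 at 0.939 and Il9 at 0.935, a secreted phospholipase and a pair of type 2 cytokines. These were above background in 10, 9 and 8 of the 16 tumours. Nearest to Cxcr1 were Cxcr2, Mbl2 (0.965) and Cxcl15 (0.964), and nearest to Cxcr2 were Cxcr1, Mpo (0.937) and Cxcl15 (0.936), against panel medians of 0.478 and 0.539. Mbl2, a lectin of complement activation, and Cxcl15, a chemokine known from mouse lung, were each above background in 8 tumours.

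S100a8 had other neighbours, Cklf, a chemokine-like factor, at 0.885, Atg10, an autophagy enzyme, at 0.865 and Ly96, the partner of the lipopolysaccharide receptor, at 0.843. After centring on the median gene these fell to 0.461, 0.525 and 0.676, and the CXCR2 ligand Cxcl2 came first at 0.704. For Cxcl1, Klra4 and Il1rl1 kept their places after centring, at 0.964 and 0.923.

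The other CXC ligands of neutrophils, with Tlr4, a receptor for S100A8, were the nearest relatives of the 5 genes on the panel, where 5 of the 8 listed genes were measured. In hypoxic against normoxic MC38 tumours 3 of 5 were lower, 2 did not pass and the median was -1.77, where 48.0% of the panel was lower and the median panel gene stood at -1.27. Cxcl15 (-2.88 ± 0.76, SE, adjusted p 0.00918), Tlr4 (-2.21 ± 0.61, adjusted p 0.011) and Ppbp, the platelet chemokine precursor (-1.77 ± 0.55, adjusted p 0.0178), passed in limma. Cxcl2, the macrophage inflammatory protein that also binds CXCR2, was at -1.36 ± 0.69 (adjusted p 0.108), and Cxcl3, its close relative, at -0.51 ± 0.72 (adjusted p 0.551). The hypoxic MC38 tumours held 34.7 to 62.9 of Cxcl2 and the normoxic ones 93.4 to 146, without overlap, as did 24.3% of the panel in that direction. None of the 5 listed genes passed after centring on the median gene, nor without the 5 tumours of fewest counts. Cxcl15 was admitted to testing only through the normoxic MC38 group.

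In E0771 none of the same 5 genes passed, with log2 differences from -1.32 for Tlr4 to 1.22 for Cxcl2. Between normoxic tumours, E0771 minus MC38, 4 of 5 were lower, beside 14.3% of the panel, namely Cxcl3 (-2.83), Cxcl2 (-2.52), Cxcl15 (-2.49) and Ppbp (-1.75), while Tlr4 stood at -1.13 (adjusted p 0.209 in limma). Cxcl3 was above background in 2 of 5 normoxic E0771 tumours and in all 4 normoxic MC38 tumours.

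**Figure D4:**
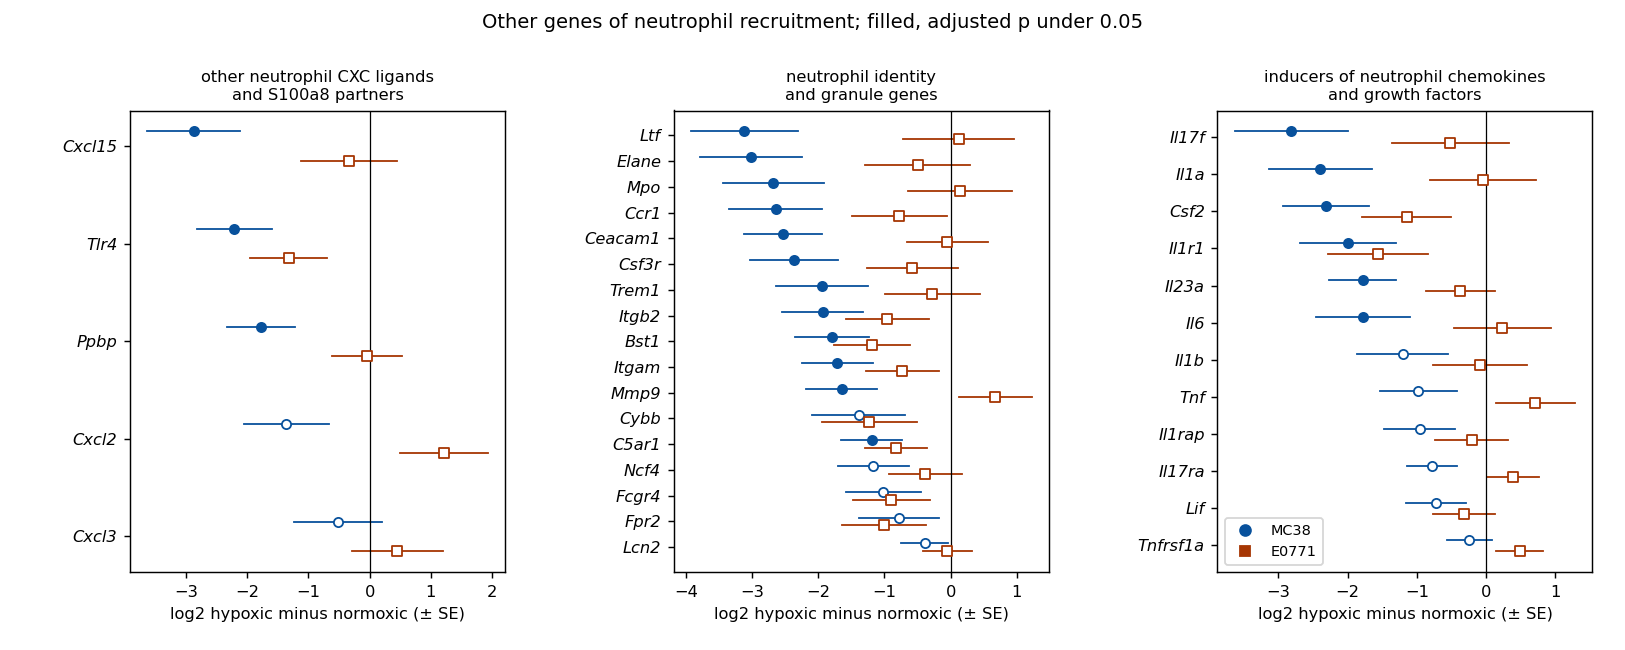
Log2 difference, hypoxic minus normoxic, of the other tested genes of neutrophil recruitment in MC38 (circles) and E0771 (squares), with bars of 1 SE. Filled symbols had an adjusted p under 0.05 in limma. In MC38 the points lie left of 0, from -3.12 for Ltf to -0.24 for Tnfrsf1a, and no E0771 point is filled.

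Of 17 tested genes listed for neutrophil identity and granules, 12 were lower in hypoxic MC38 tumours, none was higher and 5 did not pass. Their median was -1.80, beside a panel with 48.0% lower and a median of -1.27. Which cells of the tumour carried these genes was not measured. The granule genes Ltf, lactoferrin (-3.12 ± 0.81, SE, adjusted p 0.00845), and Elane, neutrophil elastase (-3.02 ± 0.77, adjusted p 0.00813), had the lowest values. Both, like Mpo and Trem1 among the lower genes, were admitted to testing only through the normoxic MC38 group, the high side of this comparison. Their calls and low ranks are therefore not independent of the filter. Ltf and Elane were each above background in 1 of 4 hypoxic MC38 tumours, so the size of these differences is poorly measured. The smallest differences were those of Lcn2, lipocalin 2 (-0.39 ± 0.36, adjusted p 0.351), and Fpr2, a formyl peptide receptor (-0.78 ± 0.61, adjusted p 0.281). Centring on the median gene left 4 of the 17 lower, and leaving out the 5 tumours of fewest counts left none. Both Ltf and Elane were above background in 7 of the 16 tumours, and Camp, a defining granule gene, in none. In E0771 none of the 17 passed (median -0.58). Between normoxic tumours 5 of 17 were lower in E0771, beside 14.3% of the panel, Lcn2 and Ltf the most, at -2.83 and -2.67. Ltf, Elane and Mpo were among these 5, and the same limit of the filter holds for them there.

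Inducers of neutrophil chemokines and neutrophil growth factors showed 6 of 12 tested genes lower in hypoxic MC38 tumours, with a median of -1.49, near the panel's 48.0% and -1.27. The T cell cytokine Il17f (-2.82 ± 0.82, SE, adjusted p 0.0131) and the alarm cytokine Il1a (-2.39 ± 0.74, adjusted p 0.0177) were lowest. Tnfrsf1a, a receptor of tumour necrosis factor, at -0.24 and Lif at -0.73 were highest, and neither passed. None of the 12 passed after centring or without the 5 tumours of fewest counts, and none in E0771 (median -0.15). Il17f was admitted to testing only through the normoxic MC38 group. In normoxic tumours 5 of 12 were lower in E0771, beside 14.3% of the panel.

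Genes of neutrophil adhesion and transit were lower in hypoxic MC38 tumours in 8 of 13 cases, with a median of -1.31, beside the panel's 48.0% and -1.27. The lowest were Sele, the endothelial selectin (-2.64 ± 0.68, SE, adjusted p 0.00839), and the integrin chain Itga4 (-2.45 ± 0.76, adjusted p 0.017). Sele was admitted to testing only through the normoxic MC38 group, the high side of this comparison. It was above background in 2 of 4 hypoxic MC38 tumours, so the size of its difference is poorly measured. Cd47 (-0.32) and Jam3 (-0.47) had the highest values and did not pass. Of 10 genes for NF-kB subunits and inhibitors 2 were lower, Ikbke (-1.65 ± 0.50, adjusted p 0.016) and Rel (-1.29 ± 0.43, adjusted p 0.0236), and the median was -0.33. Rela (0.50) and Nfkb2 (0.65) had the highest values and did not pass. After centring on the median gene, which raises every MC38 difference alike, 1 of 13 adhesion genes was lower, and 3 of the 10 NF-kB genes were higher and none lower. Scaled on the positive-control probes, 3 of 13 adhesion genes were lower and none of the 10 NF-kB genes passed. No gene of either list passed without the 5 tumours of fewest counts.

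Markers of several cell types were lower in hypoxic MC38 tumours, as Cxcl5 and the receptors were, against 48.0% of the panel. The summed signal of 8 neutrophil marker genes outside the 5 was 674 to 1638 in normoxic and 401 to 796 in hypoxic MC38 tumours, and 275 to 969 in normoxic and 233 to 546 in hypoxic E0771 tumours. Camp was at background throughout, and 5 of the 8 were at background in all hypoxic E0771 tumours. Ptprc, which all leukocytes carry, was at 440.2 to 1702 and at 64.6 to 533 in the MC38 groups, a log2 difference of -1.78 ± 0.75 (SE, adjusted p 0.0576 in limma). The 6 macrophage and monocyte markers summed to 5627 to 66610 in normoxic and 1394 to 5572 in hypoxic MC38 tumours, and 5 of the 6 passed as lower. The 4 fibroblast markers, from cells that can make Cxcl1 and Cxcl5, summed to 6518 to 57137 and to 2534 to 8620 in the same groups, with 3 of 4 passing as lower, and the 2 epithelial markers to 74.7 to 788 and 16.2 to 118, with 1 passing. The T cell, B cell, natural killer cell and eosinophil markers were lower in 2 of 4, 3 of 3, 2 of 3 and 3 of 3 tested genes, the mast cell markers in 1 of 2 and the endothelial markers in 1 of 4, where Kdr stood at 0.12 and Cdh5 at -0.33. The part of these cells in the differences of the 5 genes was not tested.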

How the data were processed

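The members, gene lists and tests were chosen with earlier results of these data known. The deposited table holds, per the labels, 1 column for each of 16 tumours. The deposited unit is a normalized, linear signal, and how the authors made it is not stated in the labels. The numbers themselves show 1 scaling factor per tumour, set on 20 housekeeping genes (geometric mean 780), with genes under 1 raised to 1 and control probes unscaled. Dividing by each tumour's step gave estimated counts, used for depth and alternatives only.

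Of 770 genes, the 712 with a mean signal of at least 24.0 (mean plus 2 SD of the 8 scaled negative probes) were tested as log2(signal + 1) with limma 3.58.1 in R 4.3.3 (lmFit, eBayes with trend, 4 group means over all 16 tumours, 5 contrasts). The pseudocount of 1 understates differences of low genes. Cxcr1, Cxcl15, Ltf, Elane, Mpo, Trem1, Sele and Il17f were among the low genes that reached the filter only through the normoxic MC38 group. Their calls and ranks in comparisons with that group are not independent of the filter. P-values were adjusted by Benjamini-Hochberg over the 712 genes, with a threshold of 0.05. The limma p-values set a group difference against the spread between tumours within groups, pooled over the 4 groups and moderated across genes. Permutation tests used scipy 1.17.1. The fit was checked on simulated data.

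Beside the 5 genes, the text names the 3 tested genes of highest correlation with each, and the 2 lowest and 2 highest genes of each list by the MC38 difference. From the list of other neutrophil CXC ligands and S100a8 partners it names every measured gene. Ptprc, Camp and others named from the marker lists, and Lcn2 and Ltf between lines, were named after their values were seen. Sequences and gene order are from RefSeq tables of GRCm38.p6. Alternatives covered scaling, background, filter, pseudocount, variance model, samples fitted, depth, threshold and single tumours left out. Precision weights (voom), leaving out 3 E0771 tumours, and the counts of lists under other scaling or depth were added after seeing the data.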

Additional observations from a re-analysis of the deposited data

How the results depend on the processing

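The number of the 5 genes passing in MC38 was 3, 4 after centring on the median gene and 0 without the 5 tumours under 350000 estimated counts, and 3 whichever tumour was left out. In E0771 it was 0 under every alternative. For the difference between lines it was 0, and 0 to 3 with single tumours left out. For the normoxic line comparison it was 4, 3 at a filter mean of 50 or without the 5 tumours, 5 without the 3 E0771 tumours of fewest counts, and 2 to 4 with single tumours left out. For the hypoxic line comparison it was 1, and 0 without the 5 tumours. At a filter mean of 50 Cxcr1, with a mean signal of 27.4, was not tested at all and so could not count. In MC38 the genes passing at that filter were Cxcl5 and Cxcr2. Panel calls in MC38 were 346, 201 after centring, 213 when scaled on the positive-control probes, 0 without the 5 tumours and 171 to 420 with single tumours left out (lowest without hypoxic mouse 25 at 171, normoxic mouse 4 at 175 and mouse 7 at 204). In E0771 they were 0, 127 when scaled on the positive-control probes and 0 to 1 with single tumours left out. For the difference between lines they were 0, and 0 to 132. For the normoxic line comparison they were 112, 59 at a filter mean of 50, 59 with only these groups fitted, 36 without the 5 tumours and 32 to 198 with single tumours left out. For the hypoxic line comparison they were 56, 3 without the 5 tumours, 11 without the 3 E0771 tumours of fewest counts and 37 to 72. Signs turned only among differences that did not pass, and those of Cxcr1 rest on a hypoxic E0771 group not above background. In E0771, scaling on the positive-control probes gave -0.88 (Cxcl1), -0.86 (Cxcr1), -1.06 (Cxcr2) and -0.74 (S100a8), background subtraction -0.61 (Cxcl1), -0.77 (Cxcr1) and -0.79 (Cxcr2), and leaving out the 5 or the 3 tumours -0.094 (Cxcl1), -1.38 (Cxcr1), -1.39 (Cxcr2) and -0.31 (S100a8). Centring gave 0.13 for Cxcl5, and voom -0.12 for Cxcr2. Single tumours left out gave -0.57 to 0.91 (Cxcl1), -0.41 to 1.01 (Cxcr1), -0.75 to 0.74 (Cxcr2) and -0.75 to 1.08 (S100a8) in E0771, and -1.26 to 0.21 for Cxcl1 in the difference between lines. In the hypoxic line comparison Cxcr1 was -0.44 and Cxcr2 -0.94 when scaled on the positive-control probes, -0.51 and -0.37 after background subtraction, -1.32 and -2.04 without the 5 tumours, and -0.45 and -0.81 without the 3. Single tumours left out there gave -0.71 to 0.041 (Cxcl5), -0.39 to 1.10 (Cxcr2) and -1.26 to 0.57 (S100a8). Of 400 single-gene values with a tumour left out, 374 kept direction and side of the threshold, 8 lost and 3 gained a call and 15 turned sign, and of 335 under the other alternatives 7 lost and 2 gained a call and 25 turned sign. Leaving out the 5 tumours removes samples, so fewer calls follow in part from its construction, and the cause of the other changes was not tested. The 2 planned edgeR fits were not run, because the deposited values are normalized signals and not counts. The voom fit did use the estimated counts, and carries the same limit. No paired analysis was possible because the groups compared share fewer than 2 mouse numbers. The receptors were nearest to background, with Cxcr1 above it in 7 and Cxcr2 in 11 of 16 tumours, and Cxcr1 was also under it in deep tumours such as E0771 normoxic 71 (675457 estimated counts).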
